A study of Homo sapiens with 47 samples.

Results

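The microRNAs described here are the products of the hairpins miR-30b and miR-30d, which lie next to each other on human chromosome 8. Each hairpin gives a 5p and a 3p arm, so the entries are hsa-miR-30b-5p and hsa-miR-30b-3p from the first and hsa-miR-30d-5p and hsa-miR-30d-3p from the second. They were taken by name from a count table of 1006 mature microRNAs, of which they are 4, and all 4 had enough counts to be tested in both cell lines. The table holds 47 small RNA libraries of prostate cancer cell lines, 24 of PC-3 and 23 of 22Rv1 (labelled p22rv1). PC-3 is an androgen receptor-negative line from a bone metastasis, and 22Rv1 is an androgen receptor-positive line derived from a relapsed CWR22 xenograft. In each line, cells in RPMI-1640 with 10% fetal bovine serum were kept for 24 h at 5, 2, 1, 0.5, 0.2 or 0% O2. Each of the 6 levels has its own normoxia control in 95% air, and each of the 24 groups has 2 libraries, except the 22Rv1 control of the 0.2% level, which has 1. No gene was altered in any group. Nothing in the labels tells if the libraries of a group came from separate cultures, so the p-values measure the spread between these libraries, part of which may be technical.

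A microRNA is cut as a duplex from a hairpin precursor, and usually 1 arm of the duplex is kept in the Argonaute protein while the other is mostly degraded. The kept arm finds its targets chiefly through its seed, bases 2 to 8. The miR-30 family is encoded by several hairpins at 3 genomic sites, its 5p arms share their seed, and they are known to dampen autophagy factors and regulators of epithelial to mesenchymal transition.

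The 5p arms of the paralogous hairpins are printed here because the cluster is set against their sum below. RefSeq (GRCh38.p14) gives the 3 mature sequences below, written 5′ to 3′ with the seed in capitals. The members' own sequences are not printed here.
hsa-miR-30a-5p: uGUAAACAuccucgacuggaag
hsa-miR-30c-5p: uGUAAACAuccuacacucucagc
hsa-miR-30e-5p: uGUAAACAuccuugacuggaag
All 3 carry the same 7-base seed, GUAAACA, and differ from each other after it. Their lengths are 22, 23 and 22 bases, so levels of these arms can be compared without a length correction. Levels of different microRNAs in small RNA libraries also depend on how well each sequence is ligated, which was not measured.

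In the GENCODE 29 annotation of GRCh38, MIR30B lies on chromosome 8 at 134800520 to 134800607 and MIR30D at 134804876 to 134804945, both on the minus strand. The hairpins are 4268 bases apart, no annotated gene spans them, and the nearest protein-coding gene, ZFAT, begins 87470 bases away. They are therefore intergenic in that annotation. The paralogues lie elsewhere, MIR30A and MIR30C2 on chromosome 6, MIR30E and MIR30C1 on chromosome 1.

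Library totals ran from 1742290 to 4327382 counts in PC-3 and from 960421 to 3181344 in 22Rv1. The lines separated on the microRNAs listed as their markers. Those lists were chosen with earlier results of these data known, so the separation is no independent check of the lines. The summed level of the 4 PC-3 markers (among them miR-221-3p and miR-222-3p) was 43049 to 53186 CPM (the library's counts rescaled to a common total) in PC-3 and 51.2 to 112 CPM in 22Rv1. That of the 2 markers of 22Rv1, miR-148a-3p and miR-375, was 623 to 1363 CPM in PC-3 and 34308 to 93576 CPM in 22Rv1. On the first principal component of each line, which holds 29.0% of the variance in PC-3 and 38.3% in 22Rv1, a few libraries stood apart. Those taken were the libraries with the largest scores of either sign, their number set by hand at 2 in PC-3 and 4 in 22Rv1. In PC-3 they were replicate 1 of the 5% hypoxia set and of its control, where a list of 5 stromal microRNAs summed to 1390 and 1469 CPM against medians of 35.8 and 25.9 CPM over the hypoxia and control libraries. Nearly all of this sum was miR-143-3p (at most 1446 CPM), since none of the other 4 exceeded 15.6 CPM in any PC-3 library. In 22Rv1 the libraries apart were replicate 1 of the 5% set and of its control, replicate 1 of the 0.5% set and replicate 2 of the 0.2% set. The 5% library and its control were the shallowest of the line (1035470 and 960421 counts). TMM scaling factors were lowest in the first 3 (0.82, 0.70 and 0.77) and highest in the last (1.27). The 0.5% library had the line's highest stromal sum, 511 CPM against a hypoxia median of 145 CPM. The part of depth or make-up in their position was not tested. The 3 epithelial microRNAs listed did not go the same way between the lines. miR-200b-3p averaged 6289 CPM in PC-3 and 55.2 CPM in 22Rv1, while miR-200c-3p averaged 23.9 and 21676 CPM and miR-141-3p 9.70 and 12304 CPM. Of the 4 blood microRNAs listed 3 are in the table. miR-486-5p averaged 307 CPM in PC-3 and 1583 CPM in 22Rv1, and the other two stayed at or below 5.75 CPM. Some results that rest on those libraries are given with and without them below, and the others include them.

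The 4 arms differed widely in level in normoxia, in the same order in both lines. miR-30d-5p was among the most abundant microRNAs of either line, 12th in PC-3 and 11th in 22Rv1. Its level was 22696 ± 2215 CPM (SD, n = 12) in PC-3 controls and 19583 ± 1907 CPM (SD, n = 11) in 22Rv1 controls. miR-30b-5p followed with 6051 ± 410 CPM (SD, n = 12) in PC-3 and 2992 ± 814 CPM (SD, n = 11) in 22Rv1. The 3p arms were far lower: miR-30d-3p stood at 195 ± 18.0 CPM (SD, n = 12) and 133 ± 11.6 CPM (SD, n = 11). miR-30b-3p stood at 35.9 ± 3.96 CPM (SD, n = 12) in PC-3 and 31.3 ± 4.28 CPM (SD, n = 11) in 22Rv1, from 24 to 143 counts a library. No control library of any arm overlapped the range of the next arm in that order, so the 5p arm was the dominant product of each hairpin. Among the control sets of the 6 levels no member was called different in either line (edgeR's quasi-likelihood test with Benjamini-Hochberg adjustment, 0% of entries called).

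The lines differed in how the hairpins' products were balanced. The level of miR-30b-5p was 2.04-fold higher in PC-3 than in 22Rv1 controls (log2 1.03, standard error 0.13, adjusted p = 2.2e-08, edgeR), and that of miR-30d-3p was 1.46-fold higher (log2 0.55, adjusted p = 1.4e-07). With the library size as the only scaling, the difference of miR-30b-5p was 0.54 (log2, adjusted p = 0.013, edgeR), the median of all entries moved from -0.15 to -0.60 (log2) and miR-30d-3p was no longer called (log2 0.08, adjusted p = 0.41). miR-30d-5p (log2 0.21, adjusted p = 0.0077) turned to -0.26 (log2) with that scaling and lost its call on leaving out any of 19 libraries, and miR-30b-3p (log2 0.20, adjusted p = 0.057) to -0.27 (log2), so their direction between the lines depends on the scaling. Of 613 tested entries 86% were called between the lines, so 3 of 4 members called is close to that background. Ratios between arms of the same library do not depend on scaling. There were 168 counts of miR-30b-5p for each count of miR-30b-3p in PC-3 controls and 91.0 in 22Rv1 controls. For miR-30d the same ratio was 116 in PC-3 and 146 in 22Rv1. Both differences passed a permutation test over control libraries (100000 resamples, two-sided, Benjamini-Hochberg adjusted over 5 ratios, p = 1.7e-05 and 3.7e-05). The sum of the cluster's 5p arms was 1.24 times that of the 3 paralogous 5p arms in PC-3 and 1.86 times in 22Rv1 (adjusted p = 1.7e-05, same permutation test). For this ratio and the miR-30b arm ratio the unadjusted permutation p was 1e-05, the smallest that 100000 resamples can give.

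**Figure D1:**
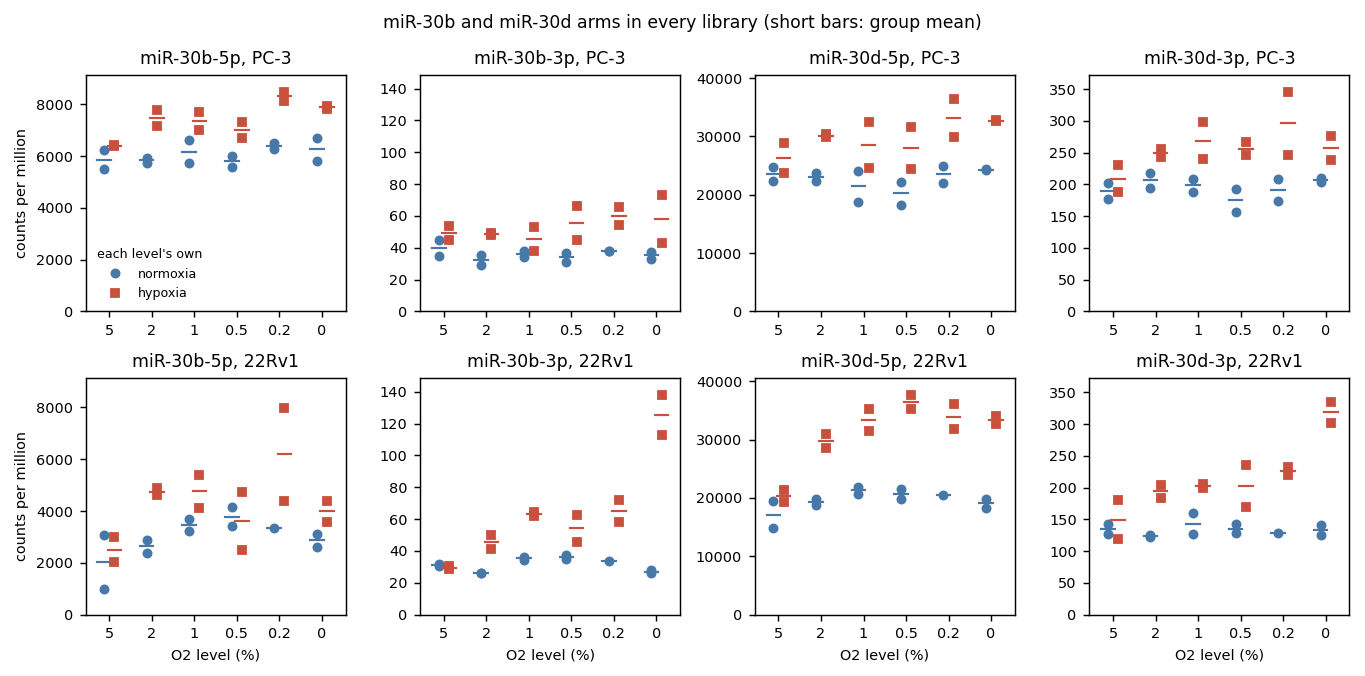
Level of each arm in CPM (y axis, linear, from 0) at each O2 level (x axis) in PC-3 (top) and 22Rv1 (bottom). Blue circles are the normoxia libraries of that level, red squares its hypoxia libraries, and short bars the group means. The miR-30b-3p libraries of 22Rv1 at 0% O2, at 138 and 113 CPM, are the highest of that arm in the data.

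In PC-3 all 4 arms rose in hypoxia, and each was higher than its same-number control in 12 of 12 pairs. miR-30d-5p lay between 18197 and 24964 CPM in the 12 controls (median 23099.6 CPM) and between 23779 and 36389 CPM in the 12 hypoxia libraries (median 30144 CPM). The ranges overlapped only slightly: 9 of 12 hypoxia libraries were above every control. The mean of the 6 effects of miR-30d-5p was a 1.32-fold rise (log2 0.40 ± 0.060 standard error, adjusted p = 5.8e-05, edgeR's quasi-likelihood test with Benjamini-Hochberg adjustment). In bulk libraries such as these, more RNA per cell and more cells of a kind cannot be told apart. The 3p arm read 156 to 217.5 CPM in controls and 187 to 345 CPM in hypoxia. There, 11 of 12 hypoxia libraries were above every control (log2 0.40 ± 0.067 standard error, adjusted p = 1.7e-04, edgeR).

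miR-30b-5p went from 5485 to 6698 CPM in PC-3 controls to 6378 to 8472 CPM in hypoxia, with 9 of 12 hypoxia libraries above every control. Its mean rise was the smallest of the 4 and the most precise (1.23-fold, log2 0.30, standard error 0.041, adjusted p = 2.2e-05, edgeR). When both lines shared 1 fit, the call was lost (log2 0.29, adjusted p = 0.23, edgeR). That fit called 29 of 613 entries for the PC-3 mean effect, against 51 of 463 in the main fit. The arm had a wider spread in 22Rv1, whose part in the loss was not tested. miR-30b-3p, the scarcest arm, rose most: 29.2 to 44.7 CPM in controls and 38.2 to 73.1 CPM in hypoxia (1.47-fold, log2 0.56, standard error 0.097, adjusted p = 2.7e-04, edgeR). It was measured from 44 to 172 counts a library. Of the 463 entries tested in PC-3, 11% were called in either direction and 5.83% higher, against 4 of 4 members higher. Without the 2 PC-3 libraries apart, the 4 calls were the same.

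At single O2 levels in PC-3 all 24 estimates were above 0, and 2 of them passed the test, each level resting on 2 against 2 libraries. The 5% level had the smallest effect for each of miR-30b-5p (log2 0.13), miR-30d-3p (log2 0.14), miR-30d-5p (log2 0.16) and miR-30b-3p (log2 0.31), and none was called (0% of all entries). The 0.2% level had the largest effect of miR-30b-5p (log2 0.42, adjusted p = 0.031), miR-30d-3p (log2 0.68, adjusted p = 0.031) and miR-30d-5p (log2 0.54, adjusted p = 0.064), where edgeR called 1.51% of entries. At that level miR-30d-3p read 345 and 247 CPM in hypoxia and 208 and 174 CPM in the controls, and miR-30b-5p 8134 and 8472 CPM against 6523 and 6278 CPM. Neither pair of groups overlapped. Both calls depend on the setting: they were lost in 6 (miR-30b-5p) and 5 (miR-30d-3p) of 10 others, among them the fit without the 2 libraries apart, and on leaving out 9 and 6 of the 24 libraries. At 0% O2 the effect was log2 0.36 for miR-30b-5p and 0.74 for its 3p arm, 0.45 for miR-30d-5p and 0.34 for its 3p arm, none called. The share of all entries called was 0.648% at 2% and at 1%, 0.864% at 0.5% and 2.81% at 0% O2.

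In PC-3 the same-numbered hypoxia and control libraries of a level varied together. When that number entered as a block within each level, 14 of the 24 member and level combinations were called in place of 2. miR-30d-5p was then called at 2% (log2 0.36, adjusted p = 0.0024), 1% (log2 0.42, adjusted p = 5.0e-04), 0.5% (log2 0.45, adjusted p = 1.7e-04), 0.2% (log2 0.54, adjusted p = 1.6e-05) and 0% O2 (log2 0.45, adjusted p = 2.6e-04), all by edgeR. No member was called at 5% O2 with the block either. The share of all entries called with the block was 0.432% at 5% O2 and between 3.24% and 7.99% at the other levels. No member showed a trend over the 6 levels in PC-3 (adjusted p = 0.99 for each, edgeR, 0.216% of entries called) or a difference among the 6 effects (0% called).

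**Figure D2:**
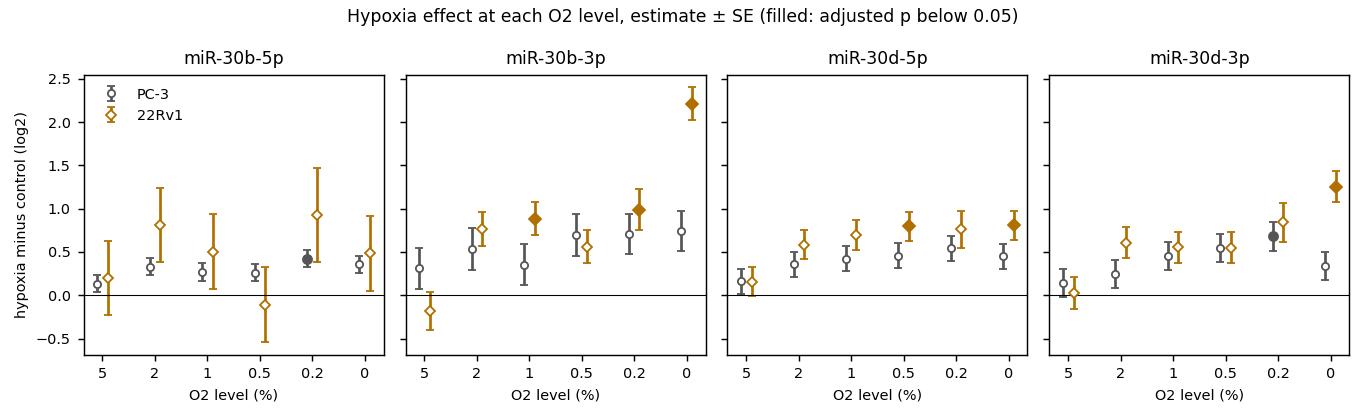
Hypoxia minus control of the same O2 level (y axis, log2) for each arm at each level (x axis), in PC-3 (grey circles) and 22Rv1 (ochre diamonds). Points are edgeR estimates with standard errors and filled points have an adjusted p below 0.05. In 22Rv1 miR-30b-3p goes from -0.18 at 5% to 2.21 at 0% O2, while miR-30d-5p lies between 0.58 and 0.81 from 2% down.

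In 22Rv1, miR-30d-5p was above the controls at every level below 5% O2, in a band from 28524 to 37615 CPM. Its libraries read 31011 and 28524 CPM at 2%, 31480 and 35302 CPM at 1%, 35195 and 37615 CPM at 0.5%, 36072 and 31807 CPM at 0.2%, and 34029 and 32695 CPM at 0% O2. The 11 controls lay between 14807 and 21897 CPM, so these 10 hypoxia libraries were all above every control. The 5% libraries, at 21283 and 19324 CPM, lay within the control range. Over all levels the mean rise was 1.55-fold (log2 0.63 ± 0.073 standard error, adjusted p = 2.2e-06 by edgeR), and the arm went from 11th to 7th among all entries. By level it was called at 0.5% (log2 0.80, adjusted p = 0.014, 3.08% of entries called) and 0% O2 (log2 0.81, adjusted p = 0.0050, 4.71% called). Both calls were lost with the library size as the only scaling. The call at 0.5% was lost without hypoxia replicate 1 or either control of that level. The call at 0% was lost without hypoxia replicate 2 of that level (adjusted p = 0.052) or its control replicate 1 (adjusted p = 0.10).

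miR-30d-3p was highest at 0% O2. Its hypoxia libraries read 180 and 118 CPM at 5%, 205 and 183 CPM at 2%, 205 and 199 CPM at 1%, 169.5 and 235 CPM at 0.5%, 219.8 and 232 CPM at 0.2%, and 335 and 302 CPM at 0% O2. The controls lay between 122 and 159.9 CPM, and 11 of 12 hypoxia libraries were above all of them. The mean rise was 1.56-fold (log2 0.64, standard error 0.077, adjusted p = 3.8e-06, edgeR), and the 0% level alone was called (2.39-fold, log2 1.26, standard error 0.18, adjusted p = 1.5e-04).

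miR-30b-3p had the steepest response of the 4 in 22Rv1, and its order followed the O2 level from 5% to 0% except at 0.5%. Its hypoxia libraries read 30.4 and 28.6 CPM at 5%, 50.1 and 41.3 CPM at 2%, 64.3 and 62.2 CPM at 1%, 45.8 and 62.5 CPM at 0.5%, 71.8 and 58.3 CPM at 0.2%, and 138 and 113 CPM at 0% O2. The 11 controls lay between 25.8 and 37.1 CPM. The 5% libraries were within the control range and the other 10 were above it, with the 0% libraries above every other and those at 1, 0.5 and 0.2% overlapping each other. The mean rise was 1.83-fold (log2 0.87, standard error 0.083, adjusted p = 1.7e-07, edgeR). At 0% O2 the rise was 4.63-fold (log2 2.21, standard error 0.19, adjusted p = 8.0e-08, edgeR), the smallest p and the 4th largest rise of 552 entries. At 1% (log2 0.89, adjusted p = 0.023, 0.725% of entries called) and 0.2% O2 (log2 0.99, adjusted p = 0.046, 0.906% called) the arm was called too. Those calls were lost in 3 and 5 of 10 other settings and on leaving out 11 and 18 of 22 libraries. No member was called at 2% (0.362% of entries called) or 5% O2 (0% called).

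The trend of the miR-30b-3p effect over the 6 ordered levels was log2 0.35 a step (standard error 0.050, adjusted p = 3.2e-04, edgeR). It was the only entry of 552 with a called trend in 22Rv1, 0.181% of them, and the 6 effects differed among themselves (adjusted p = 0.0013, edgeR, 0.362% of entries called). With the library size as the only scaling the trend was not called (log2 0.31, adjusted p = 0.11). miR-30d-3p had a trend of 0.20 a step (adjusted p = 0.059), miR-30d-5p of 0.11 (adjusted p = 0.44) and miR-30b-5p of 0.03 (adjusted p = 0.96), by edgeR. Of the mean effects in 22Rv1, 13.6% of 552 entries were called and 7.61% were called higher, against 3 of 4 members.

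miR-30b-5p was the arm whose mean effect did not pass the test in 22Rv1. Its controls ran from 1003 to 4136 CPM (median 3111 CPM) and its hypoxia libraries from 2024 to 7997 CPM (median 4392 CPM), and the ranges overlapped widely. The mean effect had the same sign as in the other arms but a wider standard error (log2 0.47, standard error 0.18, adjusted p = 0.12, edgeR), with 9 of 11 pairs higher. Its extreme values sat in the libraries that stood apart. These were 2024 CPM in 5% hypoxia replicate 1, 1003 CPM in its control, 2509 CPM in 0.5% hypoxia replicate 1 and 7997 CPM in 0.2% hypoxia replicate 2. Over the 23 libraries the Pearson correlation of its level with the first principal component was 0.69, against -0.08 for miR-30b-3p, -0.02 for miR-30d-5p and -0.12 for miR-30d-3p. These levels were not centred on the condition, so the response to hypoxia is part of each correlation. The paralogue miR-30c-5p had 0.93. Without those 4 libraries the mean effect of miR-30b-5p was called (log2 0.39, adjusted p = 2.0e-04, edgeR). It was called in 4 of 10 alternatives in all (adjusted p = 2.0e-04 to 0.40), among them the DESeq2 test and both lines in 1 fit, and also without control replicate 2 of the 5% level (log2 0.64, adjusted p = 0.0021, edgeR). Without the 4 libraries apart 18 of the 24 member and level combinations were called in place of 6. More entries were called in that fit as a whole, 150 of 541 for the mean effect against 75 of 552, and 0, 10, 29, 27, 17 and 57 from 5% to 0% O2. The parts of the first principal component and of library depth in the spread of miR-30b-5p were not tested.

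**Figure D3:**
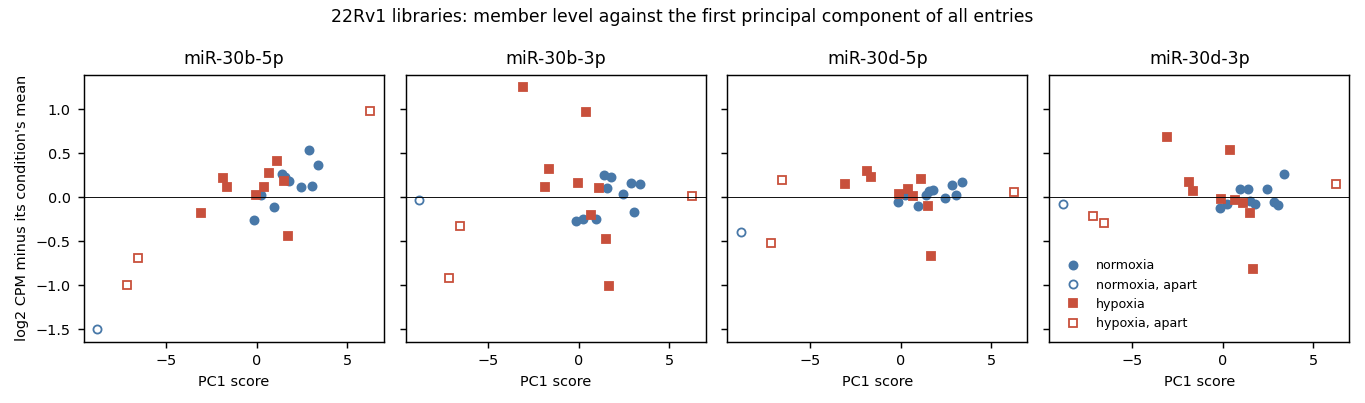
Level of each arm in the 23 libraries of 22Rv1, as log2 CPM minus the mean of its condition (y axis), against the score on the first principal component of all entries (x axis, no unit). Open symbols are the 4 libraries that stood apart. For levels not centred on the condition, the correlation with the component was 0.69 for miR-30b-5p and -0.12 to -0.02 for the other 3 arms. It was not computed for the centred values shown.

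The arms of a hairpin come from the same precursor, and their ratio within a library does not depend on scaling. For miR-30d the 5p to 3p ratio was 116 in PC-3 controls and 116 in hypoxia, and 146 and 147 in 22Rv1. The log2 difference was 0.00014 in PC-3, with 8 of 12 pairs higher, and -0.0042 in 22Rv1, with 7 of 11 higher (exact permutation within O2 level, two-sided, adjusted p = 0.998 over 10 tests for both). By level in 22Rv1 it ran from -0.45 (log2) at 0% O2 to 0.25 at 0.5%. At 0% the ratio read 101 and 108 in hypoxia against 129 and 159 in the controls. Single levels of the ratios were not tested. For miR-30b the 5p to 3p ratio fell in PC-3 from 168 to 142, lower in 9 of 12 pairs (log2 -0.25, exact permutation p = 0.012, adjusted p = 0.039). That call was lost on leaving out any of 15 of the 24 libraries. At 5% O2 in 22Rv1 the ratio read 65.4 in hypoxia and 32.3 in the control for replicate 1, which stood apart. For replicate 2 the values were 103 and 96.0. In 22Rv1 the ratio went from 91.0 to 70.1 (log2 -0.39, exact permutation p = 0.14, adjusted p = 0.21), with -1.73 (log2) at 0% O2 and 0.56 at 5%. Without the 4 libraries apart it was -0.52 (log2, adjusted p = 0.041, exact permutation).

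Between the hairpins, there were 0.267 counts of miR-30b-5p for each count of miR-30d-5p in PC-3 controls and 0.249 in hypoxia (log2 -0.10, exact permutation, adjusted p = 0.14). In 22Rv1 those ratios were 0.146 and 0.132 (log2 -0.15, exact permutation, adjusted p = 0.55). The ratio of miR-30b-3p to miR-30d-3p went from 0.185 to 0.205 in PC-3 and from 0.235 to 0.278 in 22Rv1, where its log2 change was 0.95 at 0% O2 and between -0.20 and 0.33 at the other levels. Neither mean change was called (adjusted p = 0.21 and 0.14, exact permutation). Within a line, the log2 levels of the 4 arms correlated over libraries with Pearson r of 0.71 to 0.88 in PC-3 (n = 24) and 0.52 to 0.93 in 22Rv1 (n = 23). Each library's scaling and the response to hypoxia are shared by all points. The lowest values in 22Rv1 were those with miR-30b-5p.

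None of the paralogous entries was called higher in hypoxia. Of all tested entries 5.83% were called higher in PC-3 and 7.61% in 22Rv1, so 0 among 7 is close to that background. Of the 7 other miR-30 entries, 0 were called higher in either line and all 7 had a mean effect below 0 in PC-3 (median log2 -0.08, against -0.0044 over all 463 entries, with 5.18% of entries called lower). In 22Rv1, 6 of 7 were below 0 (median log2 -0.15, against 0.01 over all 552 entries, with 5.98% called lower), and miR-30c-1-3p, the minor arm of a chromosome 1 hairpin, fell by 0.48 on the log2 scale (adjusted p = 7.5e-04, edgeR). With the replicate block in PC-3, miR-30a-3p (log2 -0.15, adjusted p = 0.024) and miR-30e-3p (log2 -0.13, adjusted p = 0.014) were called lower, among 58 of 463 entries called lower in that fit. The 5p arms with the same seed, miR-30a-5p, miR-30c-5p and miR-30e-5p, were each at log2 -0.03 in PC-3, and at -0.15, -0.16 and -0.06 in 22Rv1, none called. Without the 4 libraries apart 3 of the 7 were called lower in 22Rv1, where 74 of 541 entries were. They were miR-30c-1-3p (log2 -0.41, adjusted p = 0.0024) and 2 of these 5p arms, miR-30a-5p (log2 -0.15, adjusted p = 0.041) and miR-30c-5p (log2 -0.19, adjusted p = 0.032), by edgeR. miR-30c-5p was also called lower with the replicate block within level (log2 -0.20, adjusted p = 0.022, edgeR).

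**Figure D4:**
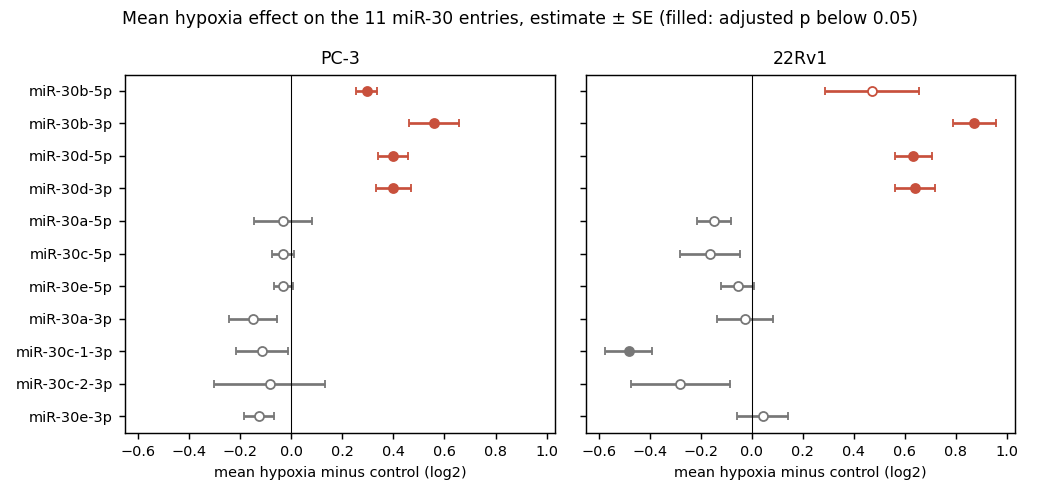
Mean hypoxia effect (x axis, log2, edgeR estimate with standard error) of the 11 miR-30 entries in PC-3 (left) and 22Rv1 (right). Red points are the arms of the miR-30b and miR-30d hairpins, grey points the other family entries, and filled points have an adjusted p below 0.05. The red points lie between 0.30 and 0.87, and no grey point exceeds 0.04.

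The make-up of the miR-30 pool shifted in both lines. In PC-3 controls the cluster's 5p arms made up 55.3 ± 2.88% of the counts of the 5 miR-30 5p arms (SD, n = 12), and in hypoxia 62.1 ± 3.36% (SD, n = 12). In 22Rv1 the share went from 65.0 ± 0.854% (SD, n = 11) to 75.2 ± 4.25% (SD, n = 12). Most of this was miR-30d-5p, which went from 43.6% to 49.7% of the pool in PC-3 and from 56.5% to 66.1% in 22Rv1. The pool itself was 4.54 ± 0.229% of all counts in PC-3 controls and 5.11 ± 0.385% in hypoxia, and 4.22 ± 0.827% and 5.40 ± 1.14% in 22Rv1.

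The ratio of the cluster's 5p arms to the paralogous 5p arms ran from 0.973 to 1.38 in the PC-3 controls and from 1.29 to 2.06 in hypoxia. It rose in 12 of 12 pairs (log2 0.41, exact permutation within O2 level, two-sided p = 1.3e-04, adjusted p = 6.4e-04 over 10 tests). In 22Rv1 the controls lay in a narrow band, 1.70 to 1.95, and the hypoxia libraries reached from 1.94 to 3.73, with 11 of 11 pairs higher. The log2 difference was 0.73 (exact permutation p = 4.3e-05, the smallest the 23328 arrangements can give, adjusted p = 4.3e-04). By level it was 0.19 at 5%, 0.55 at 2%, 0.83 at 1%, 0.95 at 0.5%, 0.93 at 0.2% and 0.91 at 0% O2 in 22Rv1. In PC-3 it was 0.18, 0.35, 0.40, 0.50, 0.55 and 0.48 (log2) in the same order. At 5% the 22Rv1 libraries read 2.12 and 1.94 against 1.70 and 1.85 in their controls, without overlap. Replicate 1 of each, at 2.12 and 1.70, stood apart on the first principal component. Whether the 22Rv1 and PC-3 shifts differ was not tested.

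**Figure D5:**
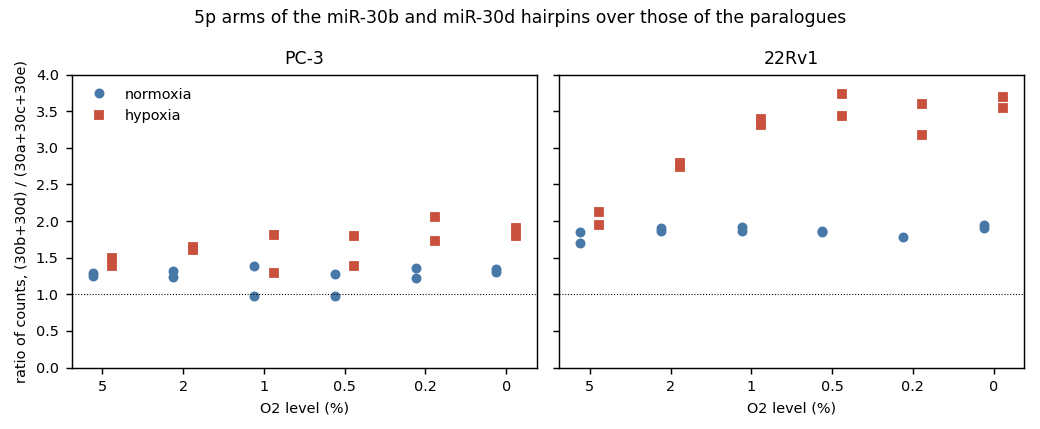
Counts of miR-30b-5p and miR-30d-5p together over those of miR-30a-5p, miR-30c-5p and miR-30e-5p together (y axis, linear, from 0) at each O2 level (x axis), in PC-3 (left) and 22Rv1 (right). Blue circles are controls, red squares hypoxia libraries, and the dotted line marks equal counts. In 22Rv1 the ratio climbs from 2.12 and 1.94 at 5% to above 3 from 1% O2 down, and in PC-3 no hypoxia library exceeds 2.06.

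The response of the 3p arm of miR-30b at 0% O2 differed between the lines. It rose by log2 0.74 in PC-3 (73.1 and 42.8 CPM against 33.1 and 37.5 CPM) and by 2.21 in 22Rv1 (138 and 113 CPM against 26.2 and 27.7 CPM). The difference, PC-3 minus 22Rv1, was -1.50 (log2, standard error 0.31, adjusted p = 0.0098, edgeR), 1 of 8 called entries of 613 (1.31%). It was lost without PC-3 hypoxia replicate 2 at 0% O2 (log2 -1.24, adjusted p = 0.065). miR-30d-3p had -0.94 (log2, adjusted p = 0.077). The difference was not particular to this cluster: miR-210-5p, an arm of another hairpin, was also called at 0% O2 (log2 -1.55, adjusted p = 0.0098, edgeR). It rose there by log2 0.45 in PC-3 and 1.97 in 22Rv1, and its mean over levels differed too (log2 -0.90, adjusted p = 9.4e-05, edgeR). For the mean over levels no member was called, with 2.94% of all entries called: the 5p and 3p arms of miR-30b had -0.20 and -0.33 (log2, adjusted p = 0.75 and 0.17), and those of miR-30d had -0.25 and -0.26 (log2, adjusted p = 0.17 and 0.23, edgeR). All 4 estimates were larger in 22Rv1.

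Among the other microRNAs of that chromosome, 1 was called. Of 46 other entries on chromosome 8, 10 were tested in PC-3 and 21 in 22Rv1 (median effects log2 0.04 and 0.02, against -0.0044 and 0.01 over all entries). Over all tested entries 11% were called in PC-3 and 13.6% in 22Rv1, so 1 of 10 and 1 of 21 do not exceed that background. miR-320a, encoded on the short arm, was the only one called in either line, higher by 0.22 in PC-3 (log2, adjusted p = 0.0021, edgeR) and by 0.24 in 22Rv1 (log2, adjusted p = 0.043). The call in 22Rv1 was lost in 4 of 10 other settings (adjusted p = 0.050 to 0.49, edgeR) and on leaving out any of 16 of 22 libraries, and that in PC-3 when both lines shared 1 fit (adjusted p = 0.062).

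Across all 47 libraries, with each line centred on its own mean, the entry most like miR-30d-5p among 330 well-measured entries was miR-210-3p, the microRNA best known for its rise in hypoxia (Pearson r = 0.92 of log2 CPM). miR-210-5p (0.84) and miR-27a-5p (0.81) followed. The same 3 entries led for miR-30d-3p, with miR-210-5p and miR-210-3p at 0.82 and miR-27a-5p at 0.81, and for miR-30b-3p, with miR-27a-5p at 0.83, miR-210-5p at 0.79 and miR-210-3p at 0.76. miR-30b-5p had other neighbours, miR-149-5p at 0.86, miR-24-2-5p at 0.82 and miR-505-3p at 0.80. Of these 6 entries 5 have a RefSeq sequence, and none of the 5 carries the seed GUAAACA. On the same scale miR-30b-3p and miR-30d-3p correlated with each other at 0.88, above every entry named for either of them. miR-30d-5p correlated with miR-30d-3p at 0.85, and miR-30b-5p with miR-30d-5p at 0.70. These correlations are descriptions over libraries that share their treatment.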

How the data were processed

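Total RNA was made into TruSeq small RNA libraries with a gel cut at the size of adapter-ligated microRNAs, per the labels' protocols. The authors deposited a table of raw counts per mature microRNA and a TMM-normalized table in CPM. The CPM values deposited by the authors equal the counts times 1 constant per library (largest relative difference 2.5e-09), and only those constants, 1.01 to 1.95, were used, as an alternative scaling. FastQC and hg19 are named in the submitters' processing notes. For the aligner and the counter, no name is given in the sources used here. Totals of 960421 to 4327382 counts per library set the precision.

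Each line was fitted with edgeR 4.0.16 in R 4.3.3 (quasi-likelihood, robust, 1 mean per group, TMM, entries reaching 5 CPM in 2 or more libraries), with p-values adjusted over all entries tested and called below 0.05. A trend is the slope of the 6 effects over the ordered O2 levels. Both lines were fitted together for the line comparisons, and CPM in the text use the scaling of that fit, so levels can be set side by side between lines. The lone 22Rv1 control at 0.2% O2 was assumed to vary like the other groups. Ratios within a library used 0.5 added counts and exact permutation of conditions within O2 level.

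Replicate numbers come from the labels. In PC-3 the deviations of same-numbered hypoxia and control libraries correlated at 0.29 to 0.85 at the 6 levels, so the numbers were read as pairing there. The main fits and the exact permutations used no pairing in either line, and the block was an alternative. Counts of same-number pairs, given for both lines, are descriptive. In 22Rv1 the correlation was 0.65, 0.36, 0.45 and 0.43 at 5, 2, 1 and 0% O2 but 0.007 at 0.5%. Because of that level the numbers were not read as pairing in 22Rv1. The fits and the permutation were tested on simulated data. Alternatives were DESeq2 1.42.0 (size factors and test), other scalings and filters, blocks and omissions. Leaving out libraries apart on the first principal component was chosen after seeing the data.

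The 4 arms, the family list and the marker lists were chosen with earlier results of these data known. Named besides are the 3 entries outside the 4 members, of at least 20 CPM, most correlated with each arm, and called entries of chromosome 8.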

Additional observations from a re-analysis of the deposited data

Results flagged for a closer look

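The effect of 0% O2 on miR-30b-3p differed between the cell lines by a test of the difference itself: PC-3 minus 22Rv1 was -1.50 (log2, standard error 0.31, adjusted p = 0.0098, edgeR). Both 22Rv1 libraries at 0% O2 were above both PC-3 libraries. miR-210-5p had a called difference of similar size at that level (log2 -1.55, adjusted p = 0.0098, edgeR).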

How the results depend on the processing

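The mean hypoxia effect of both miR-30d arms and of miR-30b-3p was called in both lines in all 10 alternatives run and without any 1 library. Leaving out the single 22Rv1 control of the 0.2% level gave no value for that line. The causes of the changes below were not tested.

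The PC-3 calls at single levels (2 of 24) became 0 with DESeq2 size factors, the authors' factors, both lines in 1 fit, no filter or without the 2 libraries apart, 1 with library size alone, 4 with the DESeq2 test, and 0 to 3 on omitting a library. The replicate block gave 14 within level and 11 as 1 term. The 22Rv1 calls (6) became 11 with the DESeq2 test, 2 with library size, 18 without the 4 libraries apart, 13 with the replicate block within level, and 3 to 8 on omission. The 22Rv1 trend calls (1) became 2 with the DESeq2 test, the authors' factors, a filter of 20 CPM or either block, 0 with library size, 3 without the 4 libraries and 1 to 2 on omission. Calls of differing effects (1) became 0 with library size, and 2 with the block within level or without the 4 libraries. Line differences at a level (1) became 2 with the DESeq2 test, the authors' factors, either block or without the 6 libraries apart, and 0 to 2 on omission. The mean line difference (0) became 2 with the block within level (miR-30b-3p and miR-30d-5p) and 0 to 1 on omission. Called ratios became 1 to 2 on omission in either line, and 3 without the 4 libraries in 22Rv1. Over all entries, the block within level moved the calls of the mean effect from 51 to 109 in PC-3 and from 75 to 164 in 22Rv1, and it changed no other call of the members' mean effects in PC-3. In 22Rv1, where the numbers did not pair the samples at each level, the block within level also called the mean effect of miR-30b-5p (log2 0.41, adjusted p = 0.0044, edgeR).

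Estimates near 0 changed sign. At 5% O2 in 22Rv1, miR-30d-3p (0.03) was -0.0052 with the authors' factors, -0.014 with no filter, -0.0091 with the block and -0.29 without the 4 libraries, which gave -0.077 for miR-30b-5p, -0.032 for miR-30d-5p and, at 0.5%, 0.23 for miR-30b-5p. Omissions gave -0.21 to 0.23 for miR-30d-3p, -0.034 to 0.39 for miR-30d-5p and -0.38 to 1.27 for miR-30b-5p at 5%, and -0.52 to 0.27 for miR-30b-5p at 0.5%. The trend of miR-30b-5p was -0.039 with the block and -0.12 to 0.12 on omission. In PC-3, miR-30d-3p at 5% had -0.033 to 0.27. The miR-30d arm ratio was 0.0012 (5 added counts), 0.015 (block), 0.0066 (without the 4) and -0.043 to 0.035 in 22Rv1, and -4.4e-05 (0 added), -0.0023 (without the 2) and -0.041 to 0.041 in PC-3. Between lines, library size alone gave -0.27 for miR-30b-3p and -0.26 for miR-30d-5p.

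Depth limits miR-30b-3p most, which had 24 to 337 counts a library.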
